A study of Mus musculus with 6 samples.

Results

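Ankrd1, Ankrd23, Xirp1, Xirp2, Fhl1, Rcan1, Lgals3 and Uck2 encode proteins known from heart muscle under stretch, overload or remodelling, and they were chosen as a list by gene symbol. Of these 8 genes, 7 had at least 1 probe set carrying a single symbol in the platform table, with 15 probe sets in all, among 18193 genes so represented. All 7 were among the 12946 genes bright enough to be tested. Xirp2, which encodes the second Xin actin-binding repeat protein, had no probe set with its symbol and was not analysed here.

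Transcript levels were measured in whole hearts of male mice under basal conditions, with 1 Affymetrix Mouse430_2 array for each heart. The labels give 3 hearts as KO, from mice that the design text calls null for the orphan nuclear receptor ERRα, which Esrra encodes, and 3 as wild type (WT). The 3 KO mice and WT 2 and 3 are labelled C57BL/6J at an age of 2 to 3 months. Strain and age are missing from the entry for WT 1, and the scanner header of that array bears a WT number other than the one in its title. The labels do not say how the allele was made, whether the mice were littermates, or that the deletion is limited to any cell type. The titles name 1 mouse per array.

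When heart muscle is stretched, sensors in the Z-disc, the titin filament and the intercalated disc signal to the nucleus, and a set of myocyte genes changes its expression. Muscle ankyrin repeat proteins bind the elastic I-band part of titin and also shuttle to the nucleus. The LIM protein FHL1 binds another elastic segment of titin, the Xin proteins tie actin filaments to the intercalated disc, RCAN1 restrains the phosphatase calcineurin, and galectin-3 is a sugar-binding protein made by macrophages and stressed tissue.

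Esrra itself was read first, since it tests the genotype labels. Signals from the brighter of its probe sets were 180.1, 24 and 18 in KO 1 to 3, against 368.1, 394.4 and 349.1 in WT 1 to 3. The library labelled KO 1 therefore kept 48.6% of the WT mean, whereas KO 2 and KO 3 kept 6.48% and 4.86%. This signal goes against the label of KO 1, so the directions below are those of the hearts labelled KO, and the values without KO 1 stand beside the results. Median signals per array lay between 13.4 and 13.7 in the hearts labelled KO and between 12.4 and 16 in WT, WT 1 being the brightest. Markers of cardiac myocytes were strong in every heart, with the 12 listed genes summing to between 75696 and 80515 in the hearts labelled KO and between 80718 and 90567 in WT.

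Setting the hearts labelled KO against WT asks what loss of the receptor changes in the unstressed heart. Of the 7 genes tested, Lgals3 and Ankrd1 rose, Ankrd23 fell, and Xirp1, Fhl1, Rcan1 and Uck2 did not pass the test (limma on log2 of signal plus 16, adjusted p under 0.05 over all genes). The genes did not move as one group. Lgals3 was 3.49-fold higher by mean signal and Ankrd1 1.34-fold higher, whereas Ankrd23 stood at 57.3% of its WT mean. Over all 12946 genes, 1.78% were called higher and 1.18% lower in the hearts labelled KO. The median log2 difference was -0.06 over the 7 genes and -0.03 over the whole set of tested genes. Lgals3, Ankrd1 and Ankrd23 were also the members whose groups were fully separate, while over all genes 6.81% lay wholly higher and 9.41% wholly lower in the hearts labelled KO.

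**Figure D1:**
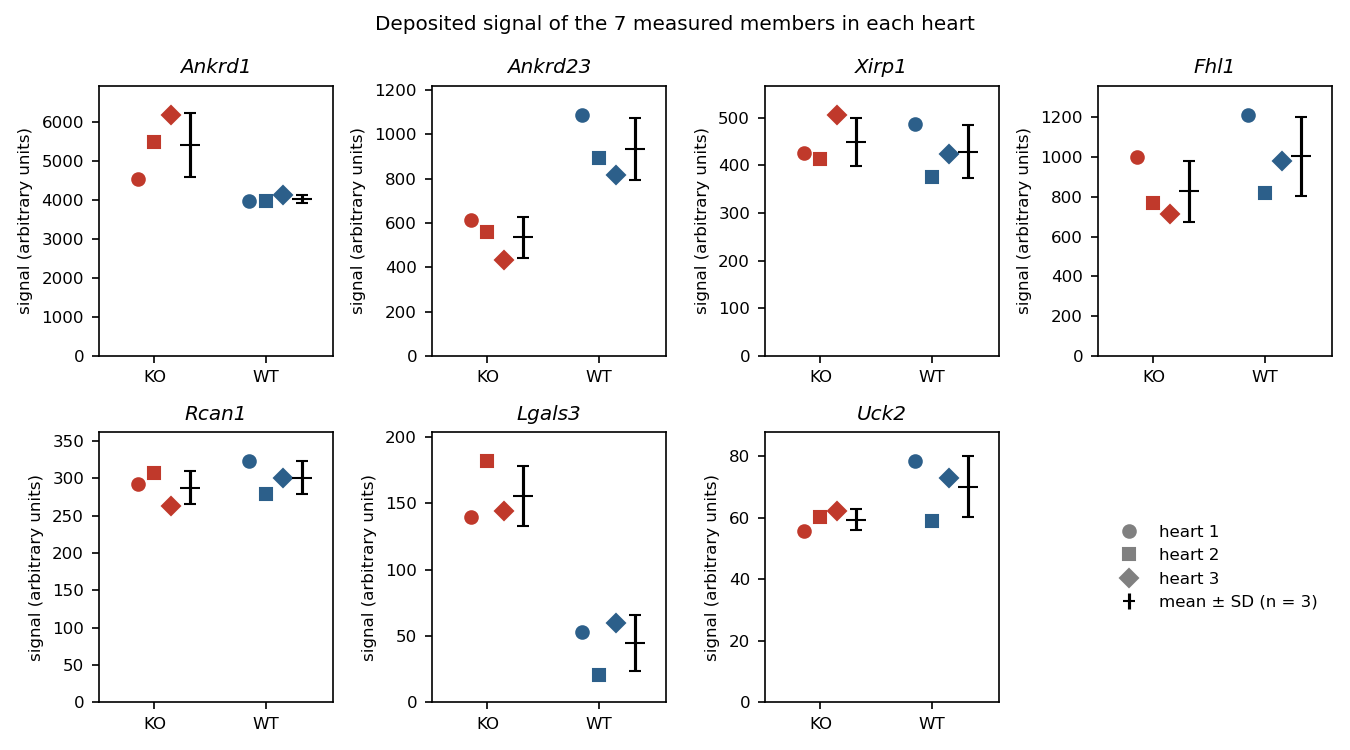
Deposited signal (arbitrary units, linear axis from 0) of the 7 measured genes in each heart, with hearts labelled KO on the left and WT on the right; symbols mark hearts 1 to 3, and bars give the mean and SD of 3 hearts. For Ankrd1 and Lgals3 all hearts labelled KO lie above all WT hearts, for Ankrd23 all lie below, and the other 4 genes overlap.

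Ankrd1 encodes cardiac ankyrin repeat protein, a titin-binding protein and nuclear cofactor that is strongly induced by stretch in cardiac myocytes. The gene lies on GRCm38.p6 chromosome 19 from 36111965 to 36119844, the chromosome that also carries Esrra from 6910977 to 6922048. The RefSeq window around its start (chr19:36119795-36120094, minus strand, 250 bases before to 50 after the start) is shown because Ankrd1 and its relative Ankrd23 moved in opposite directions. Capitals mark matches to the cores searched, which are described with the other windows.
Ankrd1 promoter: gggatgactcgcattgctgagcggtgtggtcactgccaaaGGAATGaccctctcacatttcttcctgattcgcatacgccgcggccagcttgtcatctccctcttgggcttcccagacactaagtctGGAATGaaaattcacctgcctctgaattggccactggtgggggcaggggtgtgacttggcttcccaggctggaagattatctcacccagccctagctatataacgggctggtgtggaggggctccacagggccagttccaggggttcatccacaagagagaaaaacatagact

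Its transcript was abundant in these hearts, the 69th brightest of all genes tested by mean level. The brighter probe set gave 4541.9, 5477.7 and 6172.5 in KO 1 to 3, against 3977.8, 3955.2 and 4133.7 in WT 1 to 3. All hearts labelled KO lay above all WT hearts, and KO 1 lay nearest to them. The mean was 5397 ± 818 in the hearts labelled KO and 4022 ± 97.2 in WT (SD, n = 3 each), so the spread was much narrower in WT. The log2 difference was 0.41 (SE 0.109, 95% interval 0.19 to 0.63, limma adjusted p = 0.0209).

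A second Ankrd1 probe set gave 3332.2, 3785.3 and 4819.7 in the hearts labelled KO, against 2694, 2991.6 and 2974.7 in WT. Here too the groups were separate and KO 1 was the lowest of the hearts labelled KO. In a fit over all 45037 non-control probe sets without a filter, the log2 differences of the 2 probe sets were 0.41 (limma adjusted p = 0.439) and 0.45 (limma adjusted p = 0.412), so neither passed there. The call on Ankrd1 was lost on leaving out WT 1 (limma adjusted p = 0.128), WT 2 (0.0511), WT 3 (0.0581), KO 2 (0.108) or KO 3 (0.381). Without KO 1 the log2 difference was 0.53 (limma adjusted p = 0.00169).

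Ankrd23 encodes diabetes-related ankyrin repeat protein, another member of the muscle ankyrin repeat family, found at the titin I-band and described in muscle energy metabolism. It lies on chromosome 1 from 36530193 to 36536556. RefSeq gives 2 start windows for it, and the upstream one (chr1:36536507-36536806, minus strand) is shown because it holds the 7 letters of the receptor core discussed below.
Ankrd23 upstream promoter: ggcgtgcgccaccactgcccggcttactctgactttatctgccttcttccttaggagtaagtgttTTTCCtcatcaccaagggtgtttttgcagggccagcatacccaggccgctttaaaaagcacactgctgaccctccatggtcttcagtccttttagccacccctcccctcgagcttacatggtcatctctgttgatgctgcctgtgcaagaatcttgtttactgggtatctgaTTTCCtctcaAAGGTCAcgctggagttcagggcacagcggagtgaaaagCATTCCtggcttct

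The single Ankrd23 probe set gave 615.1, 557.4 and 432.4 in KO 1 to 3, against 1088.2, 894.2 and 816.1 in WT 1 to 3. The highest heart labelled KO lay below the lowest WT heart, and KO 1 was again the nearest to WT. The mean was 535 ± 93.4 in the hearts labelled KO and 933 ± 140 in WT (SD, n = 3 each). Ankrd23 fell by 0.79 on the log2 scale (SE 0.154, 95% interval -1.10 to -0.48, limma adjusted p = 0.000668). Only 1.41% of the genes tested had a larger absolute difference. Without KO 1 the log2 difference was -0.89 (limma adjusted p = 7.98e-05). Without WT 1, the brightest array, it was -0.67 and missed the threshold (limma adjusted p = 0.0567).

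Levels of the 2 ankyrin repeat genes were also set against each other within each heart, which does not depend on how arrays are scaled. Relative to the WT mean, the log2 of Ankrd1 over Ankrd23 was 0.75, 1.16 and 1.69 in KO 1 to 3, and -0.24, 0.03 and 0.22 in WT 1 to 3. On average the ratio was 2.30-fold that of WT in the hearts labelled KO. Every heart labelled KO exceeded every WT heart. This had to be so, since Ankrd1 lay wholly higher and Ankrd23 wholly lower in the same hearts. The ratio restates those 2 differences and is no further support for them. Ankrd2, the third member of the family and typical of skeletal muscle, was too dim to be tested, at 3.5, 11.7 and 5.8 in the hearts labelled KO and 2.1, 1.7 and 1.1 in WT.

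Lgals3 encodes galectin-3, a galactoside-binding lectin of macrophages that is also raised in failing and fibrotic hearts. It lies on chromosome 14 from 47373860 to 47386167. Its start window (chr14:47373610-47373909, plus strand) is shown as that of the gene with the largest difference on the list.
Lgals3 promoter: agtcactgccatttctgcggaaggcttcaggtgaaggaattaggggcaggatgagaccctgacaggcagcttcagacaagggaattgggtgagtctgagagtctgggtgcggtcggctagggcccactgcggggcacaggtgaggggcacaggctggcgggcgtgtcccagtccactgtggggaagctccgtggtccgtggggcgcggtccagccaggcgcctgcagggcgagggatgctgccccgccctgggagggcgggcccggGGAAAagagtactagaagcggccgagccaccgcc

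Lgals3 gave 140, 181.6 and 144.6 in KO 1 to 3, against 53, 20.6 and 60 in WT 1 to 3. The lowest heart labelled KO had more than the highest WT heart, and KO 1, which kept the most Esrra, did not stand apart from KO 3. The mean was 155 ± 22.8 in the hearts labelled KO and 44.5 ± 21.0 in WT (SD, n = 3 each), where WT 2 was the dimmest. The log2 difference was 1.56 (SE 0.195, 95% interval 1.17 to 1.96, limma adjusted p = 9.97e-08), the 31st largest absolute difference of all genes tested. In the fit over all probe sets without a filter, which called 0.0688% of probe sets higher and 0.0333% lower, Lgals3 was the one probe set of the 15 that passed (limma adjusted p = 0.0354), and Ankrd23 missed the threshold (0.0907). Its log2 difference was 1.63 without KO 1 (limma adjusted p = 1.06e-12) and 1.69 without WT 1 (limma adjusted p = 0.0215).

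Galectin-3 is a classical macrophage antigen, so the macrophage and monocyte markers are given beside it. Of the 18 listed, 17 were tested, of which 1 was higher, 0 lower and 16 did not pass. The difference was positive for 11 of the 17, with a median of 0.13, against -0.03 over all genes tested. An unadjusted p under 0.05 was found for 3 of them, and for 12.5% of all genes tested. The summed signal of these markers was 3141, 4268.7 and 5124.7 in KO 1 to 3, against 4362.9, 2918.8 and 3498.1 in WT 1 to 3. These sums overlapped, and KO 1 had less than WT 1 and WT 3. Cd163, a scavenger receptor of resident macrophages, rose, with 110.2, 129.9 and 154.9 in the hearts labelled KO and 68.2, 75.7 and 53.6 in WT (log2 difference 0.85, SE 0.175, limma adjusted p = 0.00152). Cd68 was at 32.4, 44.4 and 55.1 in the hearts labelled KO and 72.6, 36.4 and 53.9 in WT, and Csf1r, the receptor for macrophage colony-stimulating factor, had a log2 difference of -0.0026 (limma adjusted p = 0.997). In whole tissue, more cells of a type and more RNA per cell cannot be told apart.

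**Figure D2:**
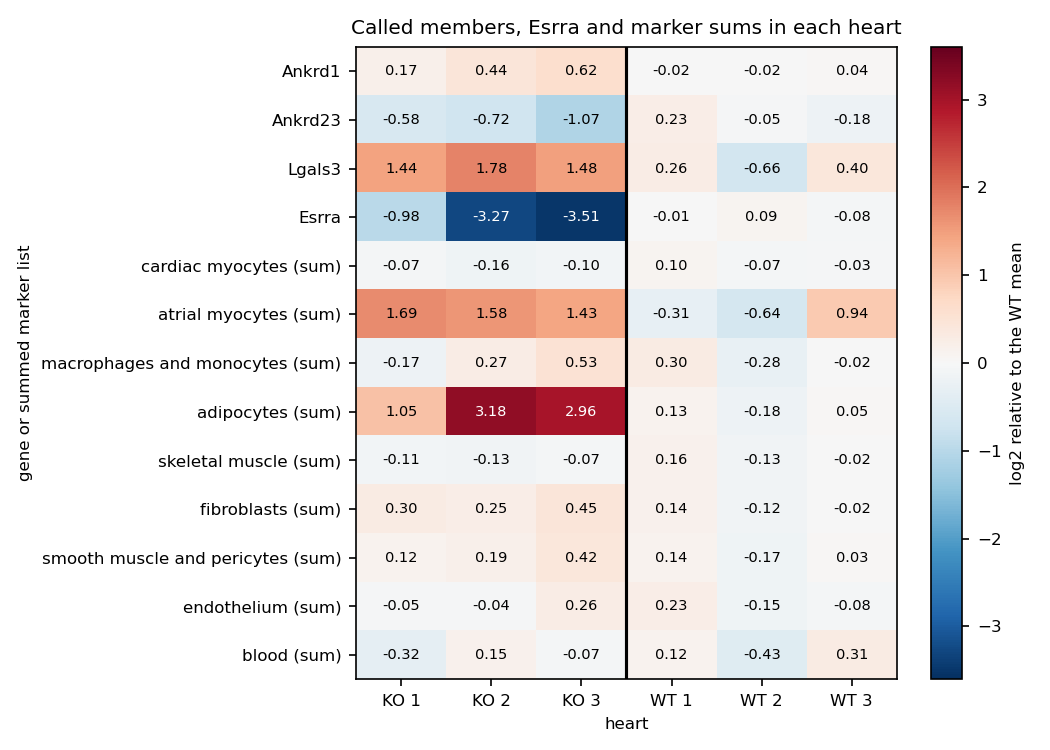
Log2 level relative to the WT mean in each heart (colour and printed value) of Ankrd1, Ankrd23, Lgals3 and Esrra and of the summed signal of 9 marker lists; hearts labelled KO stand left of the line and WT hearts right of it. The atrial, adipocyte and fibroblast sums are higher in every heart labelled KO than in every WT heart. The cardiac myocyte sums are lower in every heart labelled KO by a narrow margin, and the macrophage sums overlap.

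Marker transcripts of some other cell types differed between the groups. For comparison, 1.78% of all genes tested were called higher and 1.18% lower. Of 12 atrial myocyte markers 8 were higher and 1 lower, and their summed signal was 14584 to 17473 in the hearts labelled KO, against 3473 to 10395 in WT, WT 3 being the highest of the WT hearts. Sln, sarcolipin of atrial muscle, gave 2455.2, 2215.1 and 1594.4 in the hearts labelled KO and 317.9, 233.1 and 924.1 in WT. Pam was the atrial marker called lower (log2 difference -1.06, limma adjusted p = 0.00455). Its groups overlapped, at 73.4, 12.7 and 13.9 in the hearts labelled KO and 51.3, 79 and 92.2 in WT. Of 8 adipocyte markers tested 6 were higher and 0 lower, with sums of 472 to 2063 in the hearts labelled KO and 200.4 to 249.6 in WT. Adipoq, the adipocyte hormone adiponectin, gave 54, 390.7 and 323 in the hearts labelled KO and 22.3, 15.7 and 17 in WT, KO 1 being nearest to WT. The 12 fibroblast markers, of which 2 were higher, summed to 14815 to 16928 in the hearts labelled KO and to 11447 to 13734 in WT. Of these 12, 11 had a positive difference, 11 had an unadjusted p under 0.05 and 10 lay wholly higher, with a median of 0.39. Over all genes tested, 12.5% had such a p and 6.81% lay wholly higher. Among the markers of cardiac myocytes, 1 of 12 was lower and 0 had a positive difference. Of 9 skeletal muscle markers tested 2 were higher and 1 lower. Tnni1, slow skeletal troponin I, gave 17.4, 40.6 and 49.7 in the hearts labelled KO and 2.2, 3.6 and 1.5 in WT (log2 difference 1.44, limma adjusted p = 2.56e-05). Tnni2, fast skeletal troponin I, was higher with groups that overlapped (log2 difference 0.86, limma adjusted p = 0.0342), and Tnnt1, slow skeletal troponin T, was lower, with 73.5, 52.9 and 47.4 in the hearts labelled KO and 142.1, 86.4 and 109 in WT (log2 difference -0.79, limma adjusted p = 0.00542). The sums of this list overlapped (5716 to 5942 in the hearts labelled KO and 5678 to 6943 in WT) and were mostly Ckm, muscle creatine kinase, which heart also expresses at 5534.1, 5454.7 and 5679 in the hearts labelled KO and 6629.2, 5474.5 and 5931.6 in WT. Myh1, Myh2, Myh4, Tnnt3 and Actn3 stayed at 15.3 or less in every heart. No marker was at 0 in any heart. The part of these markers in the differences of Ankrd1, Ankrd23 and Lgals3 was not tested.

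Xirp1 encodes Xin, an actin-binding repeat protein of the intercalated disc, and lies on chromosome 9 from 120013755 to 120023598. Its signals were 426.9, 414 and 506.2 in KO 1 to 3, against 487.5, 375.5 and 424.2 in WT 1 to 3. The groups overlapped, with means of 449 ± 49.9 in the hearts labelled KO and 429 ± 56.2 in WT (SD, n = 3 each). The log2 difference was 0.07 (SE 0.158, 95% interval -0.25 to 0.38, limma adjusted p = 0.925), and its sign turned without WT 2 (-0.02) and without KO 3 (-0.02).

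Fhl1 encodes a LIM-domain protein that binds titin and takes part in the biomechanical response of myocytes. It lies on the X chromosome, from 56731209 to 56793346. Its brighter probe set gave 1002.2, 769 and 711.9 in KO 1 to 3, against 1211.6, 819 and 978.1 in WT 1 to 3. KO 1 lay above WT 2 and WT 3, and the means were 828 ± 154 in the hearts labelled KO and 1003 ± 197 in WT (SD, n = 3 each). The log2 difference was -0.27 (SE 0.152, 95% interval -0.57 to 0.04, limma adjusted p = 0.49), and -0.41 without KO 1 (limma adjusted p = 0.23). The second probe set lay between 4.7 and 15.7 in the hearts labelled KO and between 7.6 and 13.3 in WT.

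Rcan1, formerly Dscr1, encodes regulator of calcineurin 1, an inhibitor of calcineurin whose shorter isoform is transcribed from an internal start that calcineurin and NFAT switch on. The gene is on chromosome 16 from 92391951 to 92466169. Its downstream start window (chr16:92400029-92400328, minus strand) is shown because it holds 3 of the NFAT cores found on the list, while the upstream window holds none.
Rcan1 downstream promoter: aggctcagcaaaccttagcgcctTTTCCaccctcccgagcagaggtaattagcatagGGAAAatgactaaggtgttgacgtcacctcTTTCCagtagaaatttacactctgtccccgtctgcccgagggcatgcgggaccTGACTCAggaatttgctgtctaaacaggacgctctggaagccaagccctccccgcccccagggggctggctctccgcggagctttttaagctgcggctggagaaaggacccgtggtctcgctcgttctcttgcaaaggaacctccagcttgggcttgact

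The brighter Rcan1 probe set gave 291.6, 306.9 and 262.9 in KO 1 to 3, against 322.4, 278.2 and 300.2 in WT 1 to 3. The second gave 175.8, 171.5 and 166.4 in the hearts labelled KO, against 257.4, 158.2 and 159.8 in WT, where WT 1 stood apart. Both overlapped between the groups, and the files do not say which start each probe set reads. The log2 difference of the brighter one was -0.06 (SE 0.161, 95% interval -0.38 to 0.26, limma adjusted p = 0.935), on means of 287 ± 22.3 in the hearts labelled KO and 300.3 ± 22.1 in WT (SD, n = 3 each).

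Uck2 encodes uridine-cytidine kinase 2, which starts the salvage of pyrimidine nucleosides and is higher in fetal than in adult tissue. It lies on chromosome 1 from 167222895 to 167285933, and 6 probe sets carry its symbol. The brightest, whose suffix marks probes shared between transcripts, gave 55.5, 60.3 and 62.2 in KO 1 to 3, against 78.2, 59 and 72.8 in WT 1 to 3. WT 2 lay among the hearts labelled KO, and the means were 59.3 ± 3.45 in the hearts labelled KO and 70.0 ± 9.90 in WT (SD, n = 3 each). The log2 difference was -0.19 (SE 0.173, 95% interval -0.53 to 0.16, limma adjusted p = 0.751). In the fit over all probe sets the 6 differences lay between -0.19 and -0.0077, and none passed (limma adjusted p from 0.841 to 0.997).

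**Figure D3:**
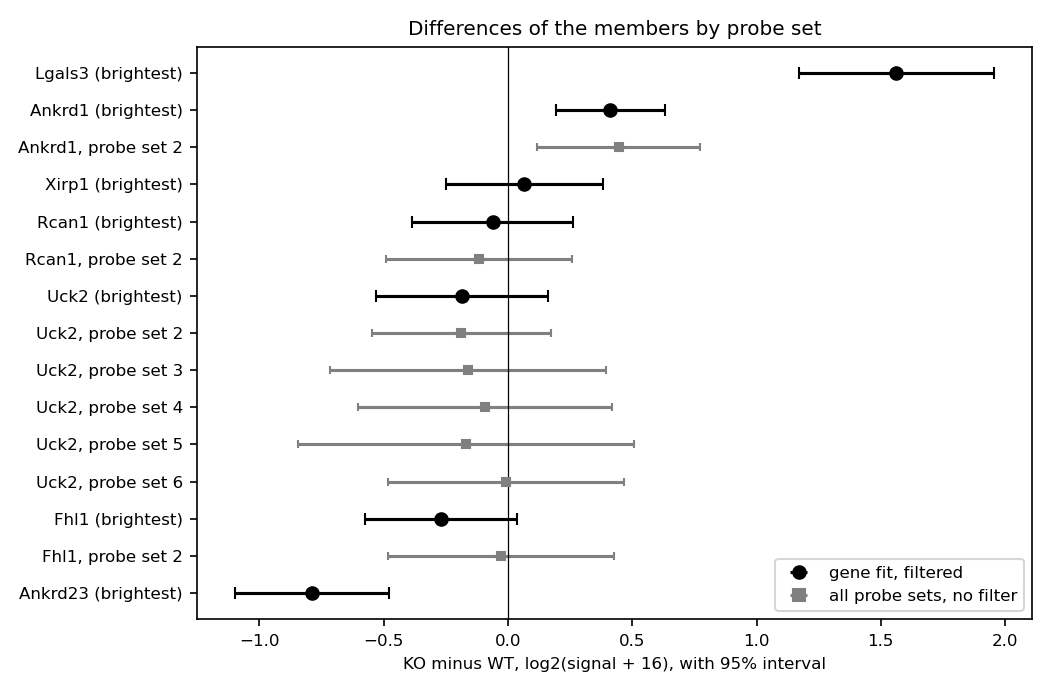
KO minus WT difference on the log2 scale of signal plus 16 for each of the 15 probe sets, with 95% intervals; black points are the brightest probe set of each gene in the filtered gene fit, and grey squares the other probe sets in the fit over all probe sets. The intervals of Lgals3 and of both Ankrd1 probe sets lie above 0, that of Ankrd23 lies below 0, and the rest include 0.

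Start windows were available from RefSeq (GRCm38.p6) for 7 of the 8 genes, 10 windows in all, and were searched on both strands. The letters sought were AAGGTCA, the core bound by ERR receptors, GGAATG, the MCAT core bound by TEAD factors, GGAAA, the NFAT core, and TGACTCA, the AP-1 site. None of these letters overlap one another in the windows shown. Of 32851 windows in the table, 4.72% hold the ERR core, 14.7% the MCAT core, 61.3% the NFAT core and 5.20% the AP-1 site. On the list the ERR core was found once, in the upstream Ankrd23 window, where its first base lies 3 bases before the start. The MCAT core was found at 2 places in the Ankrd1 window, at -210 and -123, and at 1 place in each Ankrd23 window. The AP-1 site was found in the Xirp2 window and in the downstream Rcan1 window, and the Lgals3 window held 1 NFAT core. These matches are descriptions of letters within 300 bases and do not mark bound sites.

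Nearest patterns were sought among the genes tested by the root mean square difference over the 6 hearts, after centring each gene on its WT mean. Clone and predicted symbols (starting with Gm or LOC and digits, or ending in Rik) were left out. The closest to Lgals3 were Hspa1b, which encodes an inducible heat shock protein, at 0.242 on the log2 scale, and Bmp10, a growth factor of atrial myocytes, at 0.290. Hspa1b gave 117.9, 152.1 and 112 in KO 1 to 3, against 36.1, 20 and 28.3 in WT 1 to 3. Closest to Ankrd23 were Napb (0.0492), which was dim at 1.9 to 26.9 in all hearts, and Dgat2 (0.0610), an enzyme of triglyceride synthesis that gave 768.9, 654.7 and 582.4 in the hearts labelled KO and 1383.8, 1141.4 and 984 in WT. For Ankrd1 they were Itih5 (0.0630) and Fmnl2 (0.0641), whose own differences did not pass (limma adjusted p = 0.148 and 0.281). The pairs were Plaa and Eif4g2 for Xirp1, Nomo1 and Usp39 for Fhl1, Man2c1 and Polr1c for Rcan1, and Mfhas1 and Zyg11b for Uck2, at distances of 0.0206 to 0.0472.

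Of 21 tested partners of the titin and Z-disc stretch sensors, 1 was higher, 1 lower and 19 did not pass, and their median log2 difference was -0.09. An unadjusted p under 0.05 was found for 4 of them, while 12.5% of all genes tested had one. Tcap, telethonin, which caps titin at the Z-disc, fell to 3180.3, 2303.3 and 2373.6 in the hearts labelled KO, against 4086.9, 3956.5 and 3813.6 in WT (log2 difference -0.61, SE 0.119, limma adjusted p = 0.00072). Pdlim3, a PDZ and LIM protein that binds alpha-actinin, rose to 198.6, 209.9 and 204.6, against 125.8, 89.2 and 111.5 in WT (log2 difference 0.83, SE 0.170, limma adjusted p = 0.00138). Tcap missed the threshold without WT 1 (limma adjusted p = 0.0636), without the filter (0.103) and without the intensity trend (0.106). It was not among the genes tested without shared-probe sets. Titin itself had a log2 difference of 0.05 (Ttn, limma adjusted p = 0.919), and Csrp3, muscle LIM protein, one of -0.11 (limma adjusted p = 0.748). Fhl2, the cardiac relative of Fhl1, was at -0.01 (limma adjusted p = 0.979).

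By limma 0 of the 20 intercalated disc partners of the Xin proteins passed, 1 had an unadjusted p under 0.05, and the median was -0.03. Over all genes tested 12.5% had such a p, 1.78% were called higher and 1.18% lower. Enah, an actin-binding protein of the disc, had the smallest p of that list, with 829.5, 704.6 and 847.9 in the hearts labelled KO and 675.6, 607.2 and 579.5 in WT (log2 difference 0.35, limma adjusted p = 0.27). Enah passed with quantile normalization (limma adjusted p = 0.0379) and with cyclic loess (0.0252). By limma 0 of the 20 calcineurin and NFAT genes tested passed either, 2 had an unadjusted p under 0.05, and their median was -0.06. Rcan2, the relative of Rcan1, was nearest to the threshold, with 2366.9, 2128.7 and 2011.4 in the hearts labelled KO and 3107.7, 2524 and 2747.9 in WT (log2 difference -0.36, SE 0.121, limma adjusted p = 0.102). Rcan2 passed as lower with median centring (limma adjusted p = 0.0356), cyclic loess (0.0418) and the replicate number as a block (0.0377). Of 10 tested relatives of the listed genes 0 passed by limma, and 2, Rcan2 and Lgals2, had an unadjusted p under 0.05.

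Genes of the YAP, TEAD and MRTF pathways, to whose targets Ankrd1 is usually counted, moved in both directions. The list mixes targets with the factors and cofactors themselves, such as Yap1, Wwtr1, Tead1, Srf, Mrtfa, Mrtfb and Myocd, which did not pass. Of 23 tested, 3 were higher, 1 lower and 19 did not pass, with a median of 0.03. An unadjusted p under 0.05 was found for 7 of the 23, and for 12.5% of all genes tested. Ccn2, a matrix-associated growth factor, gave 818.5, 725 and 615 in the hearts labelled KO and 235.8, 262.3 and 259.2 in WT (log2 difference 1.45, SE 0.157, limma adjusted p = 3.43e-09). Its relative Ccn1 fell, with 112, 72.1 and 112.2 in the hearts labelled KO and 156.4, 163 and 222.2 in WT (log2 difference -0.78, SE 0.179, limma adjusted p = 0.0054). The Ccn1 call was lost with quantile normalization (limma adjusted p = 0.0511) and cyclic loess (0.0558), and without the filter (0.121). It was also lost without WT 1 (limma adjusted p = 0.068), WT 3 (0.0791) or KO 2 (0.139). Without shared-probe sets Ccn1 was not tested. Acta2, smooth muscle actin (log2 difference 0.87), and Cnn1, calponin (0.84), were higher like Ccn2, but with groups that overlapped. For Acta2 the log2 difference was 0.25 without shared-probe sets (limma adjusted p = 0.733) and 0.56 with its probe sets averaged (0.12). Cnn1 was dim, with 82, 61.9 and 34.8 in the hearts labelled KO and 9.7, 33.4 and 37.7 in WT. It missed the threshold with quantile normalization (limma adjusted p = 0.203) and without WT 1 (0.368), among other settings. Acta2 and Cnn1 also stand among the 10 smooth muscle and pericyte markers, of which they were the 2 called higher. The sums of these markers were 8059 to 9923 in the hearts labelled KO and 6617 to 8164 in WT. With quantile normalization 1 gene of this list was higher and 0 lower, and without WT 1 the counts were again 1 and 0.

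Other genes known to respond to load had a median log2 difference of 0.36 over 20 tested, of which 4 were higher, 1 lower and 15 did not pass. An unadjusted p under 0.05 was found for 10 of the 20, and for 12.5% of all genes tested. Nppb, brain natriuretic peptide, gave 1582.3, 1846.3 and 1636.6 in the hearts labelled KO and 1170.2, 855.6 and 1292.1 in WT (log2 difference 0.62, SE 0.140, limma adjusted p = 0.00455). Nppa (1.45), the atrial natriuretic peptide gene, and Myh7 (0.78), beta myosin heavy chain, were also higher, as was Dstn (0.49), an actin-severing protein. Acta1, skeletal actin and a gene of the fetal program, fell instead, with 745.4, 1177.3 and 1087.8 in the hearts labelled KO and 1700, 1452.3 and 1741.3 in WT (log2 difference -0.71, SE 0.145, limma adjusted p = 0.00124). Without shared-probe sets Acta1 was not among the genes tested. Acta1 missed the threshold without WT 1 (limma adjusted p = 0.0951), without the filter (0.103) and without the intensity trend (0.0695). Among other settings, Myh7 missed it with quantile normalization (limma adjusted p = 0.0865), cyclic loess (0.083) and median centring (0.0618). Nppa missed it with the robust form of eBayes (limma adjusted p = 0.356), among others. Nppb missed it without WT 1 (limma adjusted p = 0.07), WT 2 (0.115) or KO 2 (0.0583). Neither did Nppb pass without the filter (limma adjusted p = 0.127) or the intensity trend (0.113). Dstn did not pass without WT 2 (limma adjusted p = 0.13), WT 3 (0.138), KO 2 (0.14) or KO 3 (0.316). The Dstn call was also lost without the filter (limma adjusted p = 0.12) or the intensity trend (0.188). The number higher was 1 without WT 1 and 5 without KO 1, and 0 without the filter. Nppa also stands among the atrial markers given above.

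The galectin list, without Lgals3, also holds Lgals3bp, the gene of a galectin-3-binding protein. Of its 8 tested genes 0 passed by limma, 1 had an unadjusted p under 0.05, and their median was 0.07. Such a p was found for 12.5% of all genes tested. Lgals1, the most abundant, gave 1789.8, 1849 and 1795.9 in the hearts labelled KO and 2040.9, 1771.9 and 1903.7 in WT (log2 difference -0.07). Lgals2 was the nearest to the threshold, with 25.7, 23.9 and 18.4 in the hearts labelled KO and 16.6, 8.4 and 11.6 in WT (log2 difference 0.46, limma adjusted p = 0.336). Of 21 tested genes of pyrimidine salvage and synthesis, 1 was higher and 0 lower, with a median of 0.03. That gene was Slc29a2, a nucleoside transporter, with 40.2, 38.7 and 56.9 in the hearts labelled KO and 19.2, 25.7 and 21.3 in WT (log2 difference 0.68, SE 0.188, limma adjusted p = 0.03), and it did not pass with quantile normalization or without WT 1. Uck1 (-0.25) and Uckl1 (-0.19), the kinases related to Uck2, did not pass.

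**Figure D4:**
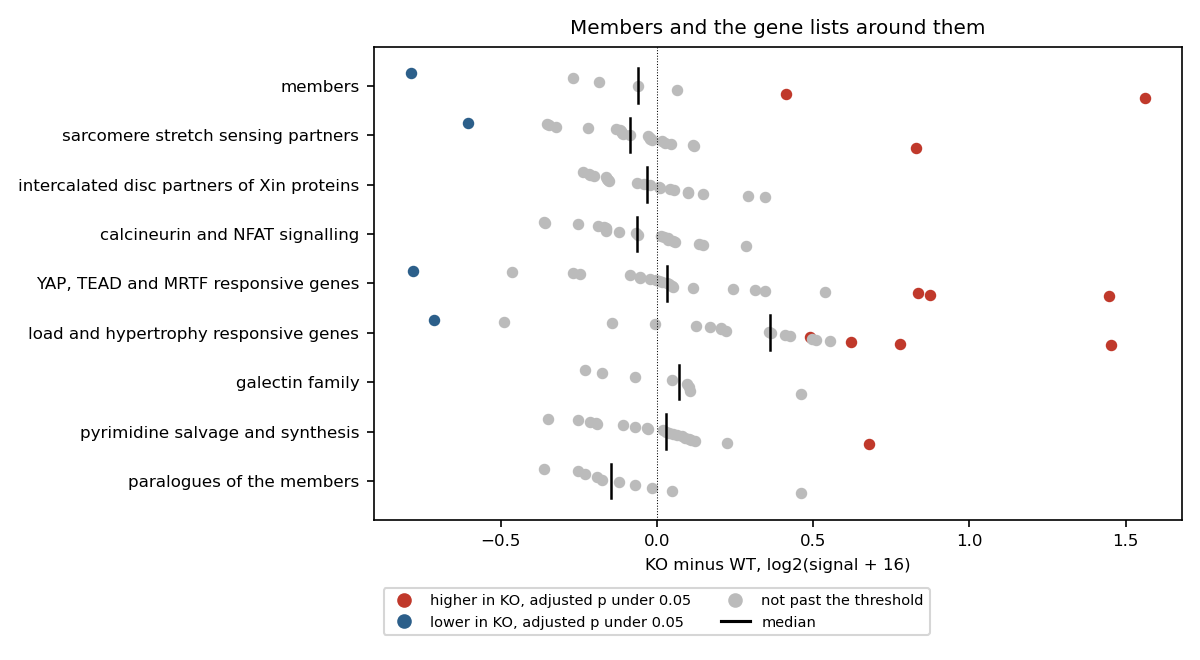
KO minus WT difference on the log2 scale of signal plus 16 for every tested gene of the list itself (top row) and of 8 related gene lists; red points passed as higher, blue as lower, grey did not pass, and black lines are medians. Load and hypertrophy responsive genes have the highest median, 0.36, and the members span from -0.79 to 1.56.

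**Figure D5:**
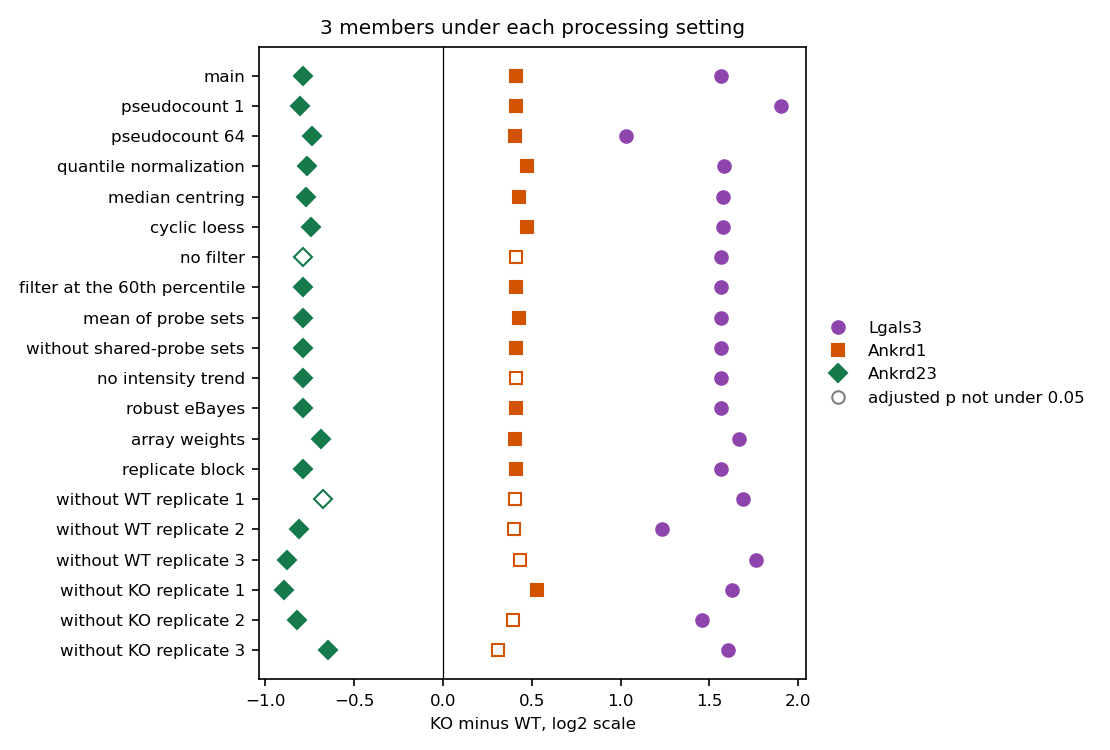
KO minus WT log2 difference of Lgals3, Ankrd1 and Ankrd23 with the settings reported here (top row) and under 19 others; filled points have a limma adjusted p under 0.05. Lgals3 passed in all 19, Ankrd23 in 17 and Ankrd1 in 12, and none of them changed sign.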

How the data were processed

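Heart RNA was hybridised to 6 arrays. For each probe set the authors deposited 1 intensity, which the submitters' processing notes credit to MAS5, and these linear values run from 0 to 10889.5. Neither a scaling target nor detection calls were at hand, so dim values cannot be separated from background. No further scaling was applied.

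Of 45099 probe sets 62 are controls, 34945 have 1 symbol, 932 several and 9160 none. Signals were taken as log2(signal + 16), which understates changes of dim genes. Probe sets under the 40th percentile of mean log2 level (a signal of 8.17) were left out. The brightest remaining probe set stood for its gene. Hearts labelled KO were compared with WT with limma 3.58.1 under R 4.3.3 (lmFit, then eBayes with trend). Tests were two-sided, with Benjamini-Hochberg adjustment over 12946 genes and a threshold of 0.05. Prior degrees of freedom came to 45.6, so a p-value depends little on the spread of that gene alone. The fit was tested on simulated data. The p-values measure the spread between these hearts, and precision is limited by having 3 arrays per group. No pair of arrays held identical values. Same-numbered hearts did not deviate together (correlations -0.0165 to 0.0288), and the labels do not pair them.

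Members, lists and tests were chosen with earlier results of these data known, so counts over lists are descriptions with no test. Names were drawn from the members, Esrra, up to 4 genes of smallest p past the threshold in each list (1 where none passed), the 2 nearest patterns of each member and leading markers. Ankrd2, Ttn, Csrp3, Fhl2, Lgals1, Uck1, Uckl1, Cd68 and the dim skeletal muscle markers were added afterwards as relatives, partners or defining markers. Pam was added as the atrial marker called lower. Alternatives were other pseudocounts, scalings, filters, probe set rules, variance models and array weights, a block for the replicate number, and omission of each heart in turn. The header file of the WT 1 array holds no measurement and was read only for its comment on the sample.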

Additional observations from a re-analysis of the deposited data

How the results depend on the processing

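Over 19 alternatives Lgals3 kept its direction and passed in all (log2 difference 1.03 to 1.91). Ankrd23 kept its direction in all and passed in 17 (-0.89 to -0.65), and Ankrd1 kept its direction in all and passed in 12 (0.31 to 0.53). Fhl1, Rcan1 and Uck2 never passed and kept their signs, Rcan1 in the 18 alternatives that hold it. Xirp1 never passed, and on leaving out each heart its difference ran from -0.0231 to 0.158, below 0 without WT 2 and, at -0.0207, without KO 3. The number of listed genes higher in the hearts labelled KO, 2 as reported, was 1 without the filter on dim probe sets and 1 without the intensity trend, and 1 to 2 on leaving out each heart. The number lower, 1 as reported, was 0 without the filter and 0 to 1 on leaving out each heart. Over all genes, 231 were higher and 153 lower. These counts were 48 and 18 without the filter, where 18193 genes were tested, 114 and 57 without the intensity trend, and 434 higher with array weights. Leaving out each heart gave 103 to 299 higher and 19 to 209 lower, both lowest without WT 1 and highest without KO 1. The cause of these shifts was not tested. With the replicate number as a block, for which the labels give no pairing, 237 were higher and 175 lower, no call on the 7 genes changed, and Rcan2 passed as lower. Signal over background is unknown, which limits what can be said of Ankrd2 and other dim genes.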
